A study of Mus musculus with 18 samples.

Results

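NuRD is a corepressor complex that joins histone deacetylase and nucleosome remodelling activities, and Mbd2, a protein that binds methylated CpG sites, is one of the factors that bring it to DNA. Its deacetylases are Hdac1 and Hdac2, its remodelling ATPases Chd3 and Chd4, its scaffold the metastasis-associated proteins Mta1, Mta2 and Mta3, its bridging subunits the GATA zinc finger proteins Gatad2a and Gatad2b, and its histone-binding chaperones Rbbp7 and the close relative Rbbp4. In the gut epithelium the deacetylases of these complexes are known for their part in keeping the barrier and in restraining inflammatory genes. The 10 symbols followed here were Hdac1, Hdac2, Chd3, Chd4, Mta1, Mta2, Mta3, Gatad2a, Gatad2b and Rbbp7, and every array probe that the deposited table names with one of them was taken, whatever its values. This gave 17 of 45281 probes, for 8 of the 10 genes, and the table names 30869 gene symbols in all. No probe carried the symbol Hdac1 or Gatad2a, and these genes were not analysed here.

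The samples were colon epithelial cells (CECs) sorted by flow cytometry as EpCAM+ CD45- CD3- and negative for a macrophage antigen, from C57BL/6 mice, either Mbd2KO mice, which lack Mbd2 in all cells, or wild-type (WT) littermates, co-housed where possible. Mice were 8 to 22 weeks old, matched for age and sex, and drank either plain water or, for 6 days, water with 2% dextran sulphate sodium (DSS), which damages the colonic mucosa and brings on colitis. The 4 groups, DSS_WT, DSS_KO, Naive_WT and Naive_KO, were each represented by 4 samples after the arrays 4R and 5R had been averaged with the arrays 4 and 5. Per the series' design text a replicate pools 1 to 5 mice, and the labels name no batch.

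All values are log2 signals of single probes of 50 bases after background correction and quantile normalization, and a probe was tested when its signal exceeded the array's negative controls (detection p under 0.05) on at least 4 of 18 arrays. Of the 17 probes, 14 were tested and 3 were detected on 0 arrays, namely ILMN_1231785 for Hdac2, ILMN_2617348 for Chd3 and ILMN_2699423 for Rbbp7. Of the 14 tested probes, 13 were detected on all 18 arrays. Different probes bind with different strength, so levels are compared between groups for 1 probe and never between probes. Where a gene had several tested probes, the one with the highest mean signal is called its leading probe. In cells sorted from tissue, fewer cells of a type and less RNA per cell cannot be told apart.

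The epithelial markers of the labelled cell type were present, since 13 of 13 epithelial genes, Cdh1, Vil1 and Krt8 among them, were detected on all arrays and their summed signal overlapped between the 4 groups. The genotype label could not be checked, because the single Mbd2 probe was detected on 0 arrays of any group, WT included, with group means of 4.44 in Naive_WT, 4.50 in Naive_KO, 4.50 in DSS_WT and 4.40 in DSS_KO. Markers of other cells moved with the groups. The summed signal of 11 fibroblast and matrix genes lay between 7520 and 9105 in DSS_WT, above the 4846 to 6104 of DSS_KO and the 3586 to 6794 of Naive_WT, and 8 of 11 passed an adjusted p under 0.05 as higher with DSS in WT. Of 8 tested myeloid genes, 8 rose with DSS in each genotype, with sums of 1053 to 2084 in Naive_WT, 3367 to 6591 in DSS_WT, 1232 to 3165 in Naive_KO and 5775 to 5936 in DSS_KO. Smooth muscle and endothelial genes were lower in DSS_KO than in DSS_WT (5 of 9 and 7 of 10). For the neutrophil genes the sums were 150 to 168 in Naive_WT and 161 to 180 in Naive_KO, and 222 to 903 in DSS_WT and 307 to 2519 in DSS_KO. The T and NK cell sums were 277 to 367 in Naive_WT, 294 to 316 in Naive_KO, 360 to 442 in DSS_WT and 357 to 422 in DSS_KO, and 3 of 5 tested genes rose with DSS in WT. The B and plasma cell sums were 147 to 172, 152 to 228, 177 to 204 and 170 to 241 in the same order, and 1 of 3 tested genes rose with DSS in WT. Of the proliferation list, 15 of 17 genes were detected on all arrays, with sums of 10816 to 19102. Detected on no array were 1 smooth muscle and 1 myeloid marker, and 2 each of the proliferation, neutrophil, B and plasma cell, and T and NK cell lists. The part of these cells in the values of the NuRD subunits was not tested.

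**Figure D1:**
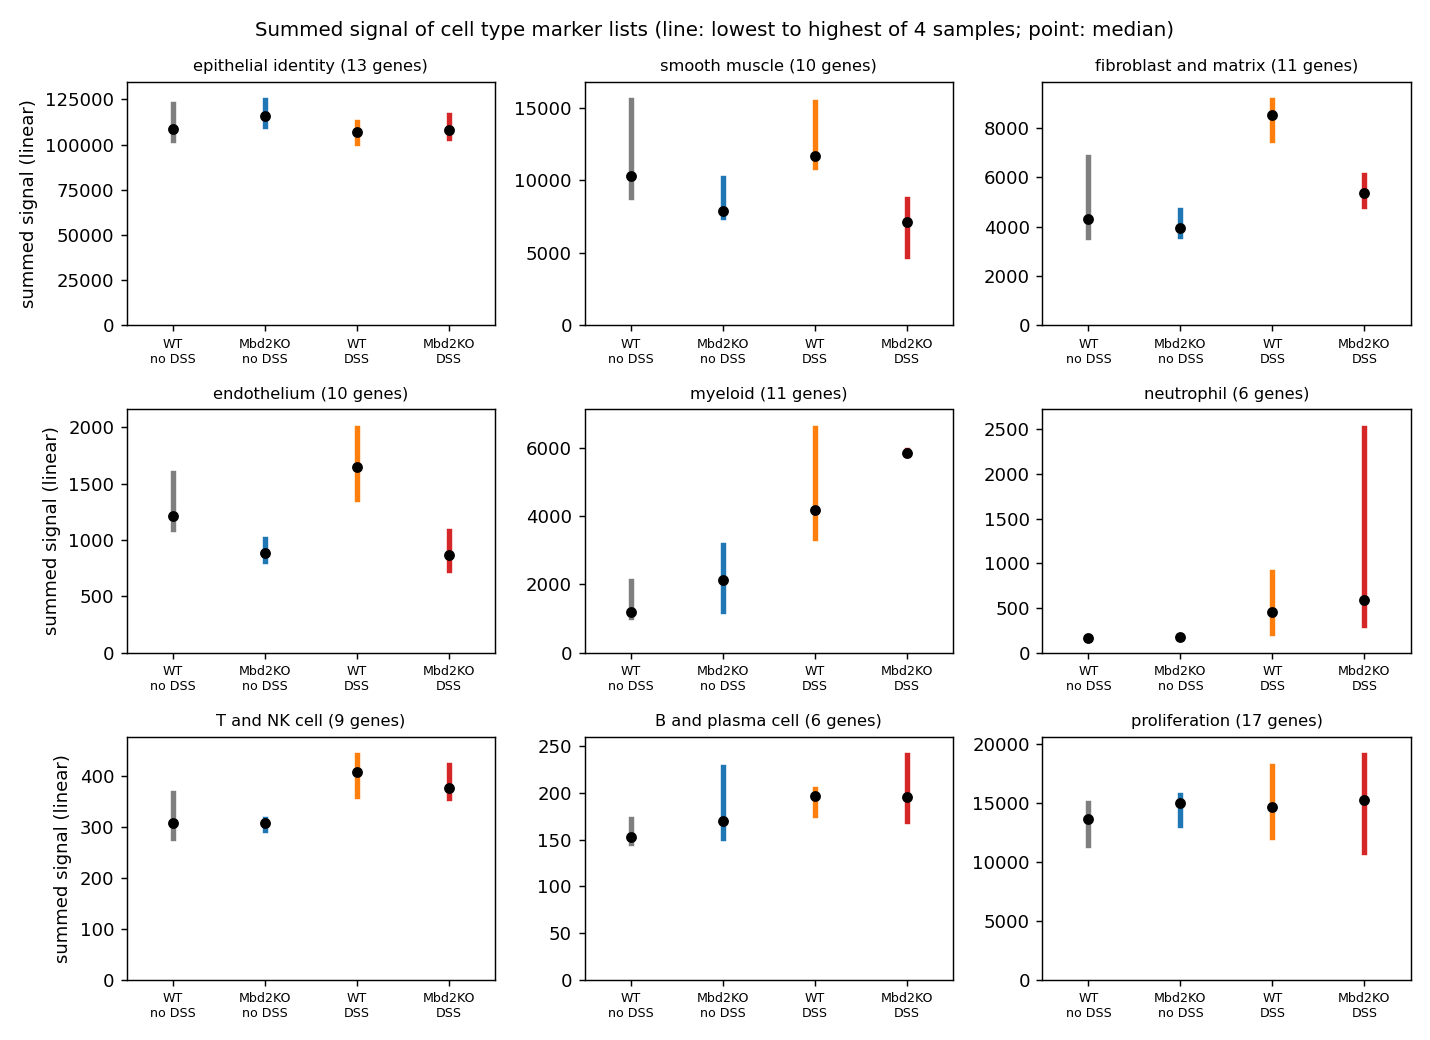
Summed linear signal (y axis, intensity units) of 9 lists of cell type markers in the 4 groups (x axis). The line runs from the lowest to the highest of 4 samples and the point is the median. The epithelial sums overlapped between all groups, the fibroblast and matrix sums of every DSS_WT sample were above those of all other samples, and the myeloid sums were higher with DSS than without it in both genotypes.

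With limma and Benjamini-Hochberg adjustment over all 21938 tested probes, the comparison of DSS_KO with DSS_WT, which asks how Mbd2 loss altered the epithelium in colitis, called 0 of 14 NuRD probes at an adjusted p under 0.05. Among all tested probes 2.46% were called higher and 3.17% lower. At an unadjusted p under 0.05 there were 4 NuRD probes and 22.2% of all probes. Of the 4, 3 were Rbbp7 probes of 1 overlapping stretch, and the other was a dim Chd4 probe detected on 0 DSS_WT arrays, which reached the filter only through DSS_KO, where it was high. The groups did not overlap for 3 of the 14, all of them Rbbp7 probes that share sequence, against 14.7% of all probes. The median log2 fold change over the leading probes of the 8 genes was -0.018, and over all tested probes -0.0034.

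Without DSS, Naive_KO against Naive_WT likewise called 0 of 14 NuRD probes by limma, where 2.43% of all tested probes were higher and 2.77% lower. At an unadjusted p under 0.05 there were 3 NuRD probes, those of Mta1, Mta3 and a dim Chd4 probe, and 22.8% of all probes. The groups did not overlap for 3 probes (Mta1, Mta3 and 1 Chd4 probe), against 12.3% of all probes. Mta1 and Mta3 were higher in Naive_KO, and the Chd4 probe was at background there, so that no difference can be given for it. The median over the leading probes was 0.053, with 4 above and 4 below 0.

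The effect of DSS was compared within each genotype. In WT, DSS raised 2 of 14 NuRD probes at an adjusted p under 0.05, those of Mta2 and Mta1, and lowered 0, where 5.71% of all probes rose and 4.75% fell. Their groups did not overlap, which held for 2 of the 14 and for 17.0% of all probes. In Mbd2KO, 2 probes passed as higher with DSS, those of Mta2 and 1 dim Chd4 probe, and 0 as lower, where 4.90% of all probes rose and 4.52% fell. The dim Chd4 probe reached the filter of 4 arrays only through DSS_KO, the group where it was high, so its call gives no support of its own and leaves Mta2. Again these were the 2 probes whose groups did not overlap, against 15.9% of all probes. Under median scaling in place of quantile normalization 5 NuRD probes passed in WT, with Hdac2, the leading Chd4 probe and 1 Rbbp7 probe beside Mta1 and Mta2, and Chd3 passed in Mbd2KO, where this scaling called 24% of all probes in WT and 20.8% in Mbd2KO. That scaling moved the median of all probes to 0.24 and 0.23, and relative to it these 4 additional probes rose by 0.32, 0.40, 0.37 and 0.35. With quantile normalization a single probe of 14 was a larger share than the percentage of all probes that rose, or of those that fell. It was a smaller share than both directions together, 10.5% of all probes in WT and 9.42% in Mbd2KO.

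With the thresholds of the study (adjusted p under 0.01 and an absolute log2 fold change of 1 or more), limma called 0 NuRD probes in every comparison. The same thresholds took 0.862% of all probes between DSS_KO and DSS_WT, 0.656% between the naive groups, 1.74% with DSS in WT and 1.72% with DSS in Mbd2KO. The interaction, which asks whether the genotype effect differs with and without DSS, called 0 NuRD probes and 0% of all probes, higher or lower, at an adjusted p under 0.05 and 0% with the thresholds of the study. At an unadjusted p under 0.05 it had 2 NuRD probes, Mta1 and the dim Chd4 probe, and 10.7% of all probes.

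**Figure D2:**
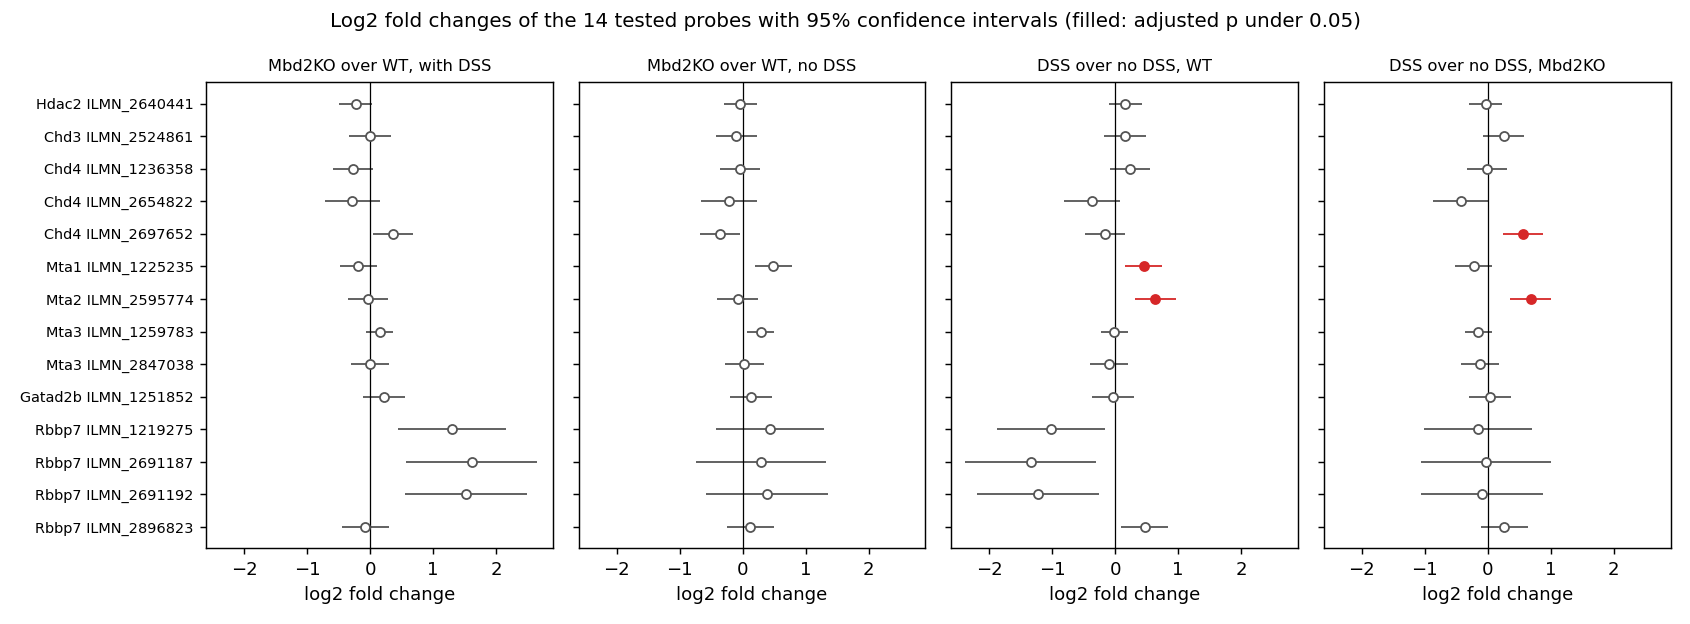
Log2 fold changes (x axis) of the 14 tested NuRD probes (y axis) in 4 comparisons, with 95% confidence intervals from limma. Filled red points had an adjusted p under 0.05, which were Mta1 and Mta2 for DSS in WT and Mta2 and 1 Chd4 probe for DSS in Mbd2KO. The intervals of 3 Rbbp7 probes are the widest.

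Mta2, a scaffold subunit that carries the deacetylase core, was the NuRD gene that rose with DSS in both genotypes. Its probe (ILMN_2595774, chromosome 19, positions 9026581 to 9026630 on the plus strand as the deposited file lists them, with no build stated) is shown by its first 30 bases, since it carries the clearest change of the complex.
Mta2: ctgtccggtgtccggactttcctaattgga
The log2 signal of Mta2 was 9.40, 9.41, 8.94 and 8.90 in Naive_WT, and 9.63, 9.83, 9.72 and 10.03 in DSS_WT. In Mbd2KO it was 9.27, 9.28, 8.89 and 8.90 without DSS, and 9.55, 9.85, 9.69 and 9.98 with it. Every DSS sample lay above every naive sample, as did every myeloid marker sum, whose part in the result was not tested, and in each naive group 2 samples stood near 9.3 or 9.4 and 2 near 8.9. With DSS Mta2 rose by 0.64 on the log2 scale in WT (SE 0.15, 95% interval 0.32 to 0.96, 1.56-fold, adjusted p = 0.0147) and by 0.68 in Mbd2KO (SE 0.15, interval 0.36 to 1.00, 1.60-fold, adjusted p = 0.0110). The rise in Mbd2KO kept an adjusted p under 0.05 without any 1 of the 16 samples, and the rise in WT lost it without DSS_WT sample 4 (0.56, adjusted p = 0.0554) or Naive_WT sample 12 (0.55, adjusted p = 0.0505). Between genotypes Mta2 differed by -0.04 with DSS (interval -0.36 to 0.29) and by -0.08 without it (interval -0.40 to 0.25).

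Mta1, the founding member of the family, had its lowest mean level in Naive_WT. Its probe (ILMN_1225235, chromosome 12, 114361329 to 114361361 and 114361429 to 114361445 in the file's positions) gave 5.88, 5.87, 5.71 and 6.04 in Naive_WT, and 6.22, 6.52, 6.38 and 6.18 in DSS_WT. In Mbd2KO it gave 6.58, 6.26, 6.16 and 6.43 without DSS, and 5.77, 6.38, 6.15 and 6.25 with it. All Naive_WT samples lay below all Naive_KO and all DSS_WT samples, while DSS_KO overlapped every other group. With DSS in WT Mta1 rose by 0.45 on the log2 scale (SE 0.14, interval 0.16 to 0.75, 1.37-fold, adjusted p = 0.0474). This call was close to the threshold. It was lost without any 1 of the 8 samples of both groups, and also without DSS_KO sample 7 or 8 or Naive_KO sample 14 or 16, with log2 differences of 0.39 to 0.51 and adjusted p from 0.0535 to 0.125 in these 12 fits. On this probe arrays 4 and 4R of DSS_WT differed by 0.28 and arrays 5 and 5R of DSS_KO by 0.33. The fibroblast and matrix sums and the myeloid sums were also higher in DSS_WT than in Naive_WT, and their part in the result was not tested. In Mbd2KO the change of Mta1 with DSS was -0.22 (interval -0.51 to 0.08, adjusted p = 0.355).

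Between the naive genotypes the Mta1 difference was 0.48, higher in Naive_KO (SE 0.14, interval 0.19 to 0.78, adjusted p = 0.0542), which did not pass. Over the fits without 1 sample the adjusted p ran from 0.0352 (without DSS_KO sample 5) to 0.138, and was under 0.05 in 2 of 16, the other being without DSS_WT sample 2. With no background correction the difference was 0.20 (adjusted p = 0.0693) and under median scaling 0.36 (adjusted p = 0.323). It passed in limma fits with the stricter filter (adjusted p = 0.0446), with arrays 4R and 5R left out (0.0360) and with array weights (0.0261). The endothelial sums, 1100 to 1594 in Naive_WT and 808 to 1010 in Naive_KO, moved with the same contrast, with 1 endothelial gene called lower and 1 myeloid gene higher in Naive_KO, and their part in the result was not tested. With DSS it was -0.19 (interval -0.48 to 0.11). The interaction for Mta1 was -0.67 (SE 0.20, interval -1.08 to -0.25, unadjusted p = 0.00342), and did not pass adjustment over all probes (adjusted p = 0.249).

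Mta3, the family member linked to epithelial gene programmes, was read by 2 probes on chromosome 17. The leading probe (ILMN_1259783, 84192035 to 84192084) gave 9.72, 9.52, 9.61 and 9.60 in Naive_WT and 9.85, 9.80, 10.09 and 9.84 in Naive_KO. With DSS it gave 9.60, 9.59, 9.73 and 9.48 in WT and 9.84, 9.66, 9.84 and 9.67 in Mbd2KO. The naive genotypes did not overlap, with Naive_KO higher by 0.28 (SE 0.10, interval 0.07 to 0.50, adjusted p = 0.110), while those with DSS overlapped and differed by 0.15 (interval -0.07 to 0.36). The second probe (ILMN_2847038, 84199473 to 84199476 and 84203791 to 84203836) ran from 7.58 to 8.32 over the 16 samples, and its naive genotypes differed by 0.03 (interval -0.27 to 0.33). The other probe's difference was therefore not seen on it. DSS changed the leading probe by -0.01 in WT (interval -0.23 to 0.20) and -0.15 in Mbd2KO (interval -0.36 to 0.07).

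**Figure D3:**
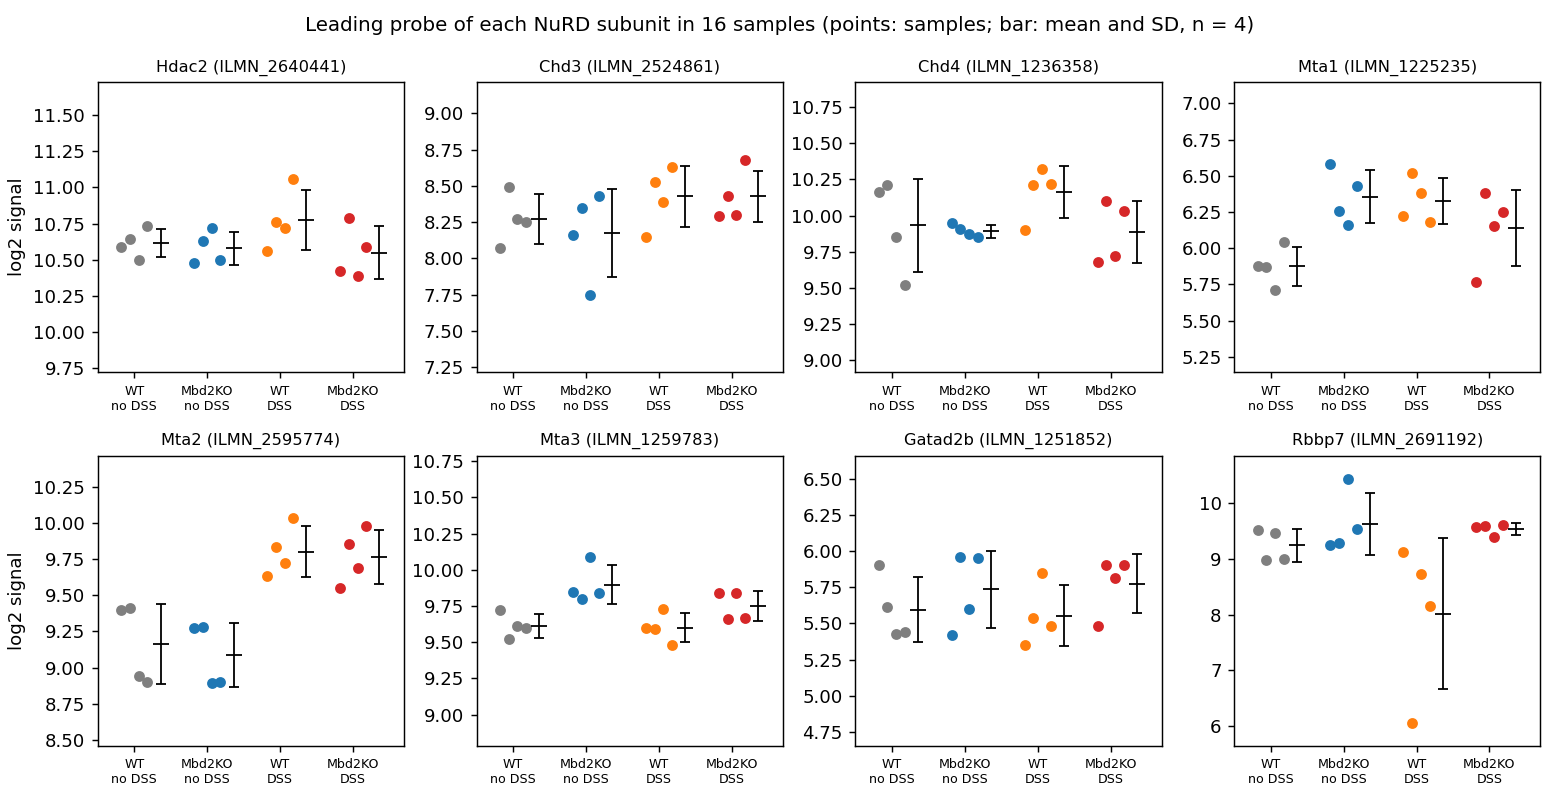
Log2 signal (y axis) of the leading probe of each of the 8 NuRD genes in the 16 samples, by group (x axis). Points are samples, and the bar is the mean with SD (n = 4); the axes span the same log2 range for all genes except Rbbp7, whose axis is wider. Mta2 samples with DSS lie above those without it, Mta1 has its lowest mean in Naive_WT, and Rbbp7 spreads widely in DSS_WT.

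Hdac2 is the catalytic deacetylase of the complex that the table covered. Its probe (ILMN_2640441, listed with no chromosome position) ran from 10.50 to 10.73 in Naive_WT (mean 10.61 ± 0.10, SD, n = 4), from 10.48 to 10.72 in Naive_KO (10.58 ± 0.11), from 10.56 to 11.06 in DSS_WT (10.77 ± 0.21) and from 10.39 to 10.79 in DSS_KO (10.55 ± 0.18). All 4 groups overlapped, and the order of their means was DSS_WT, Naive_WT, Naive_KO, DSS_KO. No neighbours in this order differed at an adjusted p under 0.05. The largest difference was DSS_KO under DSS_WT, -0.23 (SE 0.12, interval -0.49 to 0.03, adjusted p = 0.300). Its within-group SD, 0.157, was below that of most tested probes (median 0.223).

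Chd4, the main ATPase of NuRD in most tissues, was read by 3 probes on chromosome 6 that did not move alike. The leading probe (ILMN_1236358, 125080185 to 125080234) gave 10.16, 10.21, 9.85 and 9.52 in Naive_WT and 9.95, 9.91, 9.87 and 9.85 in Naive_KO. With DSS it gave 9.90, 10.21, 10.32 and 10.22 in WT and 9.68, 10.10, 9.72 and 10.03 in Mbd2KO. All groups overlapped. Its difference between DSS_KO and DSS_WT was -0.28 (SE 0.15, interval -0.60 to 0.04, adjusted p = 0.297), and DSS changed it by 0.23 in WT (interval -0.09 to 0.55) and by -0.01 in Mbd2KO (interval -0.33 to 0.31).

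The second Chd4 probe (ILMN_2654822, 125051295 to 125051344) ran from 6.47 to 7.10 in Naive_WT, 6.26 to 6.75 in Naive_KO, 6.31 to 6.60 in DSS_WT and 5.54 to 6.74 in DSS_KO. It differed by -0.36 with DSS in WT (interval -0.80 to 0.08) and by -0.43 in Mbd2KO (interval -0.87 to 0.01, adjusted p = 0.215). Across the 16 samples its Pearson correlation with the leading probe was 0.30, a description over samples that share the arrays.

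The third Chd4 probe (ILMN_2697652, 125063959 to 125064008) was near background, detected on 2 of 4 Naive_WT arrays, 0 of 4 Naive_KO arrays, 0 of 5 DSS_WT arrays and 4 of 5 DSS_KO arrays. It gave 4.69, 4.97, 5.38 and 4.76 in Naive_WT, 4.44, 4.57, 4.67 and 4.69 in Naive_KO, 4.81, 4.90, 4.79 and 4.66 in DSS_WT, and 5.10, 4.84, 5.27 and 5.42 in DSS_KO. The DSS_KO samples lay above all Naive_KO samples. The limma fit put the difference at 0.56 (SE 0.15, interval 0.25 to 0.88, adjusted p = 0.0257), but Naive_KO was not above background. The probe also reached the filter only through DSS_KO, so this call gives no support of its own. With Naive_KO raised to the lowest detected signal of each array, the measured DSS_KO mean was 1.13-fold higher. That value is not a minimum, because the spread of the samples does not enter it and not every DSS_KO array detected the probe. Without DSS_KO sample 7 or 8 or Naive_KO sample 13 or 14 the adjusted p was 0.0586 to 0.0962. Its correlation with the leading probe over the 16 samples was -0.16.

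Chd3, the related ATPase, gave on its tested probe (ILMN_2524861, listed with no chromosome position) 8.07 to 8.49 in Naive_WT, 7.75 to 8.43 in Naive_KO, 8.15 to 8.63 in DSS_WT and 8.29 to 8.68 in DSS_KO. These ranges overlapped throughout. The means with DSS were 8.43 in both genotypes, against 8.27 and 8.17 without it. DSS changed Chd3 by 0.16 in WT (interval -0.17 to 0.48) and by 0.25 in Mbd2KO (interval -0.07 to 0.58, adjusted p = 0.331), and the genotypes differed by less than 0.01 with DSS (interval -0.33 to 0.33).

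Gatad2b, which bridges the Mbd protein and the remodelling ATPase, had a dim probe (ILMN_1251852, chromosome 3, 90161885 to 90161934) that was detected on all 18 arrays. It ran from 5.43 to 5.90 in Naive_WT, 5.42 to 5.96 in Naive_KO, 5.35 to 5.85 in DSS_WT and 5.48 to 5.90 in DSS_KO, so the groups overlapped. DSS_KO was 0.22 above DSS_WT (SE 0.16, interval -0.11 to 0.55, adjusted p = 0.449) and Naive_KO 0.14 above Naive_WT (interval -0.19 to 0.47). The changes with DSS were -0.04 in WT and 0.04 in Mbd2KO.

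Rbbp7, a chaperone that binds histone H4 and serves several chromatin complexes beside NuRD, had the largest differences and the least even ones. It was read by 4 tested probes on chromosome X. Of these, 3 start at bases 83, 91 and 105 of the listed transcript and the fourth at base 1925. The 3 probes near the start share a run of 29 bases, so they measure almost the same stretch and are not independent. Their 30 bases around that run are shown with the shared run in capitals, and the first 30 bases of the fourth probe below them, because the results of Rbbp7 turn on this difference.
ILMN_2691187 (chrX:159198473-159198522): gAACTCAGGCTTTTCCGAGCGAGGACTGCG
ILMN_2691192 (chrX:159198481-159198530): gAACTCAGGCTTTTCCGAGCGAGGACTGCG
ILMN_1219275 (chrX:159198495-159198544): AACTCAGGCTTTTCCGAGCGAGGACTGCGt
ILMN_2896823 (chrX:159216762-159216811): gggtgggtgtgcatgctcccatctctcata
The sequences are those the deposited table gives for each probe, on the plus strand, and the positions are whole probes as the file lists them, with no build stated. The listed positions of ILMN_2691187 and ILMN_1219275 overlap by slightly less than the run of 29 bases that their sequences share. None of the 4 probes shared 14 or more bases in a row with a probe of another gene in the table.

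The leading Rbbp7 probe (ILMN_2691192) gave 9.52, 8.98, 9.47 and 9.00 in Naive_WT and 9.25, 9.28, 10.43 and 9.53 in Naive_KO. With DSS it gave 9.12, 6.06, 8.73 and 8.16 in WT, and 9.57, 9.59, 9.39 and 9.60 in Mbd2KO. All DSS_WT samples lay below all DSS_KO samples, DSS_WT sample 2 was far below the other 3, and Naive_KO sample 15 was the highest of all. The SD was 1.36 in DSS_WT and 0.10 in DSS_KO (n = 4 each). The other 2 probes of this stretch gave the same picture, with 5.55 and 6.29 in DSS_WT sample 2 against 8.96 to 9.36 over both probes in DSS_KO, and correlated with the leading probe at 0.99 over the 16 samples.

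DSS_KO exceeded DSS_WT by 1.61 (SE 0.49), 1.52 (SE 0.46) and 1.30 (SE 0.41) on the log2 scale on the probes starting at bases 83, 91 and 105. The adjusted p-values of limma were 0.0639, 0.0625 and 0.0695, so none passed 0.05. Without DSS_WT sample 2 the differences were 0.94, 0.87 and 0.73, with adjusted p of 0.132, 0.101 and 0.129. Without DSS_WT sample 1 they were 2.05, 1.89 and 1.58, with adjusted p of 0.0190, 0.0242 and 0.0363, and without DSS_WT sample 3 they were 1.84, 1.76 and 1.53, with adjusted p of 0.0504, 0.0449 and 0.0460. The size and the call thus both moved with which DSS_WT sample was left out. The fibroblast and matrix sums, higher in DSS_WT than in DSS_KO, moved with the same contrast, and their part in the result was not tested.

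With DSS in WT these 3 probes differed by -1.34, -1.22 and -1.01 (SE 0.49, 0.46 and 0.41), with adjusted p of 0.0906, 0.0987 and 0.121. Without DSS_WT sample 2 the differences were -0.67, -0.57 and -0.44, and without DSS_WT sample 1 they were -1.78, -1.59 and -1.29 (adjusted p 0.0216, 0.0329 and 0.0575). In Mbd2KO the changes with DSS were -0.03, -0.09 and -0.15, with intervals that spanned 1.06 below 0 to 1.01 above it. The interactions were 1.31, 1.13 and 0.86 with adjusted p from 0.526 to 0.633.

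The fourth Rbbp7 probe did not follow. It gave 5.90, 5.87, 5.65 and 5.04 in Naive_WT, 5.92, 5.59, 5.91 and 5.54 in Naive_KO, 6.24, 6.16, 5.89 and 6.04 in DSS_WT and 5.80, 6.30, 6.08 and 5.83 in DSS_KO. DSS_WT sample 2, lowest on the other probes, was the second highest of its group here. The difference between DSS_KO and DSS_WT was -0.08 (SE 0.18, interval -0.45 to 0.30), and that with DSS in WT was 0.47 (SE 0.18, interval 0.09 to 0.84, adjusted p = 0.103), opposite in sign to the other 3 probes. Over the 16 samples this probe correlated with them at -0.21 to -0.22. On the 3 overlapping probes arrays 4 and 4R of DSS_WT differed by at most 0.14 and arrays 5 and 5R of DSS_KO by at most 0.23. On the fourth probe these pairs differed by 0.16 and 0.57, the latter more than its change of 0.47 with DSS in WT. No repeat of DSS_WT sample 2 was analysed. The within-group SD of the 3 probes, 0.664 to 0.806, was above that of at least 98.3% of tested probes.

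**Figure D4:**
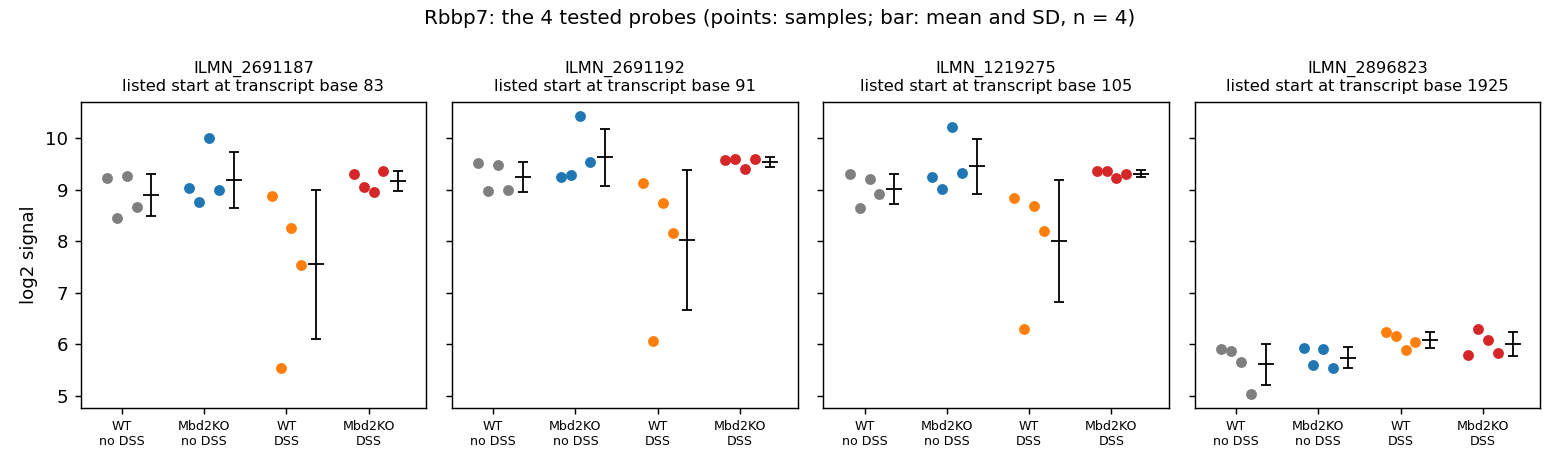
Log2 signal (y axis) of the 4 tested Rbbp7 probes in the 16 samples, by group (x axis), ordered by their listed start in the transcript. Points are samples, and the bar is the mean with SD (n = 4). On the 3 overlapping probes DSS_WT spreads down to 5.55 and lies below DSS_KO, and on the probe starting at base 1925 both groups overlap.

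Rbbp4, which takes the same place in NuRD, showed a like disagreement between probes. Its leading probe (ILMN_1235327, start at base 1523 of the listed transcript) gave 8.25, 8.07, 8.37 and 7.94 in Naive_WT, 8.26, 8.07, 8.03 and 7.92 in Naive_KO, 7.21, 7.43, 7.90 and 7.74 in DSS_WT, and 8.23, 8.25, 8.21 and 8.24 in DSS_KO. It was higher in DSS_KO than in DSS_WT by 0.66 (SE 0.14, adjusted p = 0.0123) and fell by 0.59 with DSS in WT (SE 0.14, adjusted p = 0.0147). A second Rbbp4 probe (ILMN_1230623, start at base 4212) rose by 0.55 with DSS in WT (SE 0.11, adjusted p = 0.00573) and differed by -0.34 between DSS_KO and DSS_WT (adjusted p = 0.0869). The other 2 tested Rbbp4 probes passed in no comparison.

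The other Mbd2 partners and NuRD-associated genes, a list of which 14 genes were tested by their leading probes, are given next to the shares of all probes above. Between DSS_KO and DSS_WT the Rbbp4 probe was the 1 call of this list (median log2 fold change of the list 0.02, all probes -0.0034). Mbd3, the relative that forms NuRD without Mbd2, was 0.38 higher in DSS_KO (interval 0.01 to 0.75, adjusted p = 0.216) and 0.48 higher in Naive_KO (interval 0.11 to 0.85, adjusted p = 0.116), which did not pass. Without DSS, Mbd3l2 (0.52, adjusted p = 0.0253) and Cdk2ap2 (0.41, adjusted p = 0.0436) were higher and Zfp687 (-0.53, adjusted p = 0.0226) lower in Naive_KO, with a list median of 0.06. With DSS, Rbbp4 was the 1 call in WT and Mbd3l2, which fell by 0.45 (adjusted p = 0.0334), the 1 call in Mbd2KO.

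The medians of the lists of related complexes lay between -0.16 and 0.18 over all comparisons. The median over the leading probes of the 8 NuRD genes was 0.16 with DSS in WT and -0.02 in Mbd2KO. All tested probes had medians of -0.01 and -0.02 there. For the 14 tested Mbd2 and NuRD partners the median log2 difference between genotypes was 0.02 with DSS and 0.06 without it, that with DSS was 0.01 in WT and 0.02 in Mbd2KO, and the interaction was -0.09. In the same order, the 13 genes of the Sin3 complex had medians of -0.04, 0.04, 0.07, -0.02 and -0.10. The 10 genes of the CoREST complex stood at -0.08, -0.03, -0.06, -0.02 and 0.01. In the same order, the 8 genes of the NCoR and MiDAC complexes had medians of -0.06, -0.16, 0.04, 0.13 and -0.04. Sin3, CoREST and NCoR hold deacetylases as NuRD does, and Polycomb repressive complex 2 holds the Rbbp chaperones. The 13 genes of the other histone deacetylases stood at -0.16, -0.06, -0.0079, -0.10 and 0.0054. In the same order, the 8 genes of the Polycomb repressive complex 2 had medians of 0.0065, -0.0037, -0.14, -0.09 and 0.18. The 14 genes of the other remodelling ATPases stood at -0.03, -0.10, 0.05, -0.03 and 0.0086. In the same order, the 8 genes of the histone chaperones and acetyltransferase partners of Rbbp7 had medians of -0.03, 0.06, 0.07, 0.04 and -0.04.

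Over all 8 lists, the one above included, 85 of 105 genes were tested, each by its leading probe only. Between DSS_KO and DSS_WT 1 was higher and 4 lower at an adjusted p under 0.05 by limma, with a median of -0.04, where the shares of all probes were 2.46% and 3.17%. These were Rbbp4 and, lower, Hdac5 (-0.64, adjusted p = 0.0381), Hdac6 (-0.41, adjusted p = 0.0300), the CoREST subunit Gse1 (-0.51, adjusted p = 0.0371) and the ISWI ATPase Smarca1 (-0.52, adjusted p = 0.0226). Of the 13 other deacetylases tested, those 2 were the calls in this comparison.

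Without DSS 4 of the 85 were higher and 2 lower in Naive_KO (median 0.01), where the shares of all probes were 2.43% and 2.77%. Beside the 3 Mbd2 partners these were the class II deacetylases Hdac4 (0.63, adjusted p = 0.0352), Hdac7 (0.49, adjusted p = 0.0327) and, lower, Hdac5 (-0.75, adjusted p = 0.0196). With DSS in WT 3 rose and 5 fell (median 0.02), beside 5.71% and 4.75% of all probes. Hdac7 rose by 0.75 (adjusted p = 0.00152), Sap30 of the Sin3 complex by 0.55 (adjusted p = 0.0390) and Hdac6 by 0.36 (adjusted p = 0.0368), while Chd6, a remodelling ATPase outside NuRD, fell by 0.59 (adjusted p = 0.0205), Arid4a of Sin3 by 0.46 (adjusted p = 0.0385), Hdac10 by 0.40 (adjusted p = 0.0332) and Mtf2 of Polycomb repressive complex 2 by 0.38 (adjusted p = 0.0392), beside Rbbp4. With DSS in Mbd2KO 0 rose and 3 fell (median -0.03), beside 4.90% and 4.52% of all probes. Those that fell were Chd6 (-0.55, adjusted p = 0.0286), the corepressor Ncor1 (-0.38, adjusted p = 0.0235) and Mbd3l2. The histone chaperones and acetyltransferase partners of Rbbp7 held 1 called gene over all comparisons, Rbbp4. Its leading probe was higher in DSS_KO than in DSS_WT and fell with DSS in WT. A second Rbbp4 probe rose by 0.55 with DSS in WT (limma, adjusted p = 0.00573), so no direction is given for the gene. The interaction called 0 of the 85, and none of these genes reached the thresholds of the study in any comparison.

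The leading probes of the 8 NuRD genes were not all positively correlated across samples, and whether the genes are regulated together was not tested. Over the 28 pairs of leading probes the Pearson correlation over 16 samples ran from -0.66, between Chd3 and Mta3, to 0.62, between Chd3 and Mta2, with a median of 0.22 and 18 pairs above 0. After subtraction of group means the median was 0.21, and the pairs ran from -0.82, again between Chd3 and Mta3, to 0.77, between Chd4 and Mta2. These values describe samples that share arrays and normalization. Among genes outside the set, the patterns most like Hdac2 over the 16 samples were those of Wdr77 (Pearson r = 0.88), Phf21b (0.84) and LOC675933 (0.84), and those most like Chd4's leading probe were Ak1 (0.81), D130017D19Rik (0.80) and Bmp1 (0.79), picked as the highest of all tested genes.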

How the data were processed

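RNA of sorted CECs was hybridised to Illumina MouseWG-6 arrays. The labels name an RNeasy kit for the RNA and the methods of the paper a mirVana kit. The signals deposited by the authors are mean bead intensity per probe on a linear scale, not normalized and not background-subtracted per the file headers. The deposited detection p-value compares each probe with the negative controls of its array. The submitters' processing notes name lumi and limma, without versions.

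The deposited signals covered 45281 probes and 936 negative controls on 18 arrays. Negative controls averaged 101 to 134 intensity units and 18851 to 20618 probes were detected per array, and the number of arrays limits the precision. The neqc function of limma 3.58.1 in R 4.3.3 (offset 16) removed background by means of those controls, made the quantiles of the arrays equal and gave log2 values. Probes with a detection p under 0.05 on at least 4 arrays were kept, 21938 in all. Arrays 4 and 4R and arrays 5 and 5R differed less than any other pair of their group (SD of the log2 difference 0.194 and 0.236, others 0.287 to 0.482) and were averaged. The labels do not explain 4R and 5R, which were taken as repeats. The paper's figure legend gives 5 biological replicates per genotype for the epithelial cells with DSS, so the number of samples differs from the paper's. Groups were taken from the sample titles; the genotype label of the Naive_WT samples repeats the group name. The methods of the paper describe biological replicates from several separate experiments. The labels do not assign samples to these experiments, so they could not enter a fit, and their part in the results was not tested. The design text gives up to 5 mice per replicate while the methods of the paper give a higher number.

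One limma fit with a mean per group over 16 samples (empirical Bayes moderation, 12 residual degrees of freedom and 4.71 from the prior, two-sided) gave 5 contrasts, each adjusted with Benjamini-Hochberg over all tested probes. Each p-value is from this fit or, where a sample or setting was changed, from the same model refitted. The fit was tested on simulated data. All NuRD probes are described, and each gene outside the set is named because it passed an adjusted p under 0.05 in a list of related complexes (at most 3 per list and contrast, by size), because its pattern was among the 3 most like Hdac2 or Chd4, or, for Mbd3 and the further Rbbp4 probes, after its values were seen. The NuRD genes and all lists were chosen with earlier results of these data known. The labels and the methods of the paper define no pairing. Alternatives were another scaling, no background correction, other filters, other uses of the repeat arrays, a fit to the groups compared, other variance models, array weights and leaving out each sample. Positions are those of the deposited table, whose genome build is not given in the sources used here.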

Additional observations from a re-analysis of the deposited data

Results flagged for a closer look

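One value among the 14 tested NuRD probes in the 4 groups stood far from the rest of its group. DSS_KO sample 7 had a log2 signal of 9.39 on the leading Rbbp7 probe (ILMN_2691192), under the 9.57, 9.59 and 9.60 of the other 3 samples, a gap that was 0.890 of the group's range. The group's whole range was narrow, with an SD of 0.10, and the gap was small beside those in DSS_WT. Of 56 sets of 4 samples examined in this way 1 was picked out, and chance picks out about 1 in 20.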

How the results depend on the processing

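Counts of NuRD probes at an adjusted p under 0.05 were small and moved with the settings. For DSS_KO against DSS_WT the count was 3, not 0, with all 18 arrays separate and with array weights, each time the 3 overlapping Rbbp7 probes, and 0 to 3 without 1 sample. Without DSS it was 1, not 0, with no background correction, the stricter filter, arrays 4R and 5R left out and array weights, and 0 to 1 without 1 sample. The called probe was that of Mta1 in these settings except with no background correction, where it was another. For DSS in WT it was 5, not 2, under median scaling, where the share of all probes called went from 10.5% to 24%, and 1 with no background correction, no filter, arrays 4 and 5 left out, the trended and robust variance and the fit to the groups compared, and 0 to 3 without 1 sample. For DSS in Mbd2KO it was 1 with the stricter filter and 1 to 2 without 1 sample. With the thresholds of the study the count was 1, not 0, under median scaling for DSS in WT and in Mbd2KO, Mta2 both times. The interaction count stayed at 0 in the settings that were run, and it could not be fitted to the groups compared, since it needs all 4. Median scaling moved the median of all tested probes to 0.24 for DSS in WT and 0.23 in Mbd2KO, and to -0.08 and -0.07 for the genotype contrasts with and without DSS. It put the share of higher calls over all probes at 93.0% and 93.1% with DSS, from 54.6% and 52.0%, and at 30.1% and 28.2% between genotypes, from 43.6% and 46.7%. Mta2 then rose by 1.04 and 1.05, or 0.80 and 0.81 above that median. Of 681 fold changes under alternatives other than leaving out a sample, 6 lost and 15 gained a call, and of 1120 with 1 sample left out 18 lost and 9 gained one. No called fold change reversed, and 30 and 58 uncalled ones changed sign. No paired analysis was possible because the groups share none of their sample numbers. Probes near background, such as the third Chd4 probe, limit what can be seen.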
